A study of Mus musculus with 2 samples.

Results

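The insulin-like growth factor (IGF) axis was described in primary stromal vascular cultures of mouse inguinal white (iWAT) and interscapular brown adipose tissue (iBAT). The 9 genes were the ligand Igf1, the receptors Igf1r and Insr and the binding proteins Igfbp2, Igfbp3, Igfbp4, Igfbp5, Igfbp6 and Igfbp7, chosen by name among the 27995 features that both matrices list, and all 9 were present in both. The mice were wild-type C57BL/6N, 8 to 12 weeks old, and tissue was pooled over animals before isolation. Cultures grown to 80% confluency stayed untreated or were given FGF1, FGF2 or FGF8, each at 5.5 nM, for 48 h, and 1 BD Rhapsody whole-transcriptome library per depot pooled these 4 conditions with 10000 cells of each. The study's methods name only vehicle, FGF1 and FGF2 for the single-cell cultures and give a narrower age range, so the make-up of the pools follows the sample labels and is not settled. The files used here carry no condition per cell, so no value below bears on an FGF. There was 1 library for each depot, so no test was possible and nothing was checked in replicates, and depot cannot be told apart from other properties of the libraries. One of these may be the sex of the mice, which the labels do not give: the iWAT library had 345 CPM of Xist and the iBAT library 0.0505 CPM, and the 4 Y-linked genes examined were higher in iBAT. CPM (counts-per-million) is the share of a gene in all UMIs, the unique molecular identifiers that count captured transcripts.

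IGF-1 is a secreted peptide that signals through the tyrosine kinase IGF1R, and insulin signals through the related INSR. Both promote the formation of adipocytes from preadipocytes. IGF-binding proteins hold IGF outside the cell and set how much reaches the receptor, and proteases such as PAPP-A, which cleaves IGFBP4 and IGFBP5, release it again. IGFBP7 is a more distant family member with weak affinity for IGF, and IGFBP6 prefers IGF-2 over IGF-1.

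In the reference annotation Igfbp2 and Igfbp5 lie side by side on chromosome 1, 5456 bases apart and in opposite orientation, and Igfbp3 lies 3539 bases from Igfbp1 on chromosome 11. Igfbp4 is also on chromosome 11 (GRCm39, 98932064 to 98945218, plus strand), Igfbp6 on chromosome 15 (102052697 to 102057953, plus strand), Igfbp7 on chromosome 5, Igf1 on chromosome 10, Igf1r on chromosome 7 and Insr on chromosome 8. No other annotated gene overlaps Igfbp2, Igfbp4 or Igfbp5. Polr2b overlaps Igfbp7 and Pgpep1l overlaps Igf1r, and reads in such stretches could belong to either gene because the handling of strand in counting is not given in the sources used here.

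The 150 bases before the start of the canonical transcript (GRCm39) are shown for Igfbp4, which carried the difference between depots, and for Igfbp5 and Igfbp6, which were lower in Adipoq-positive iBAT cells. They were searched on both strands for 5 motifs, none of whose matches overlap here, and matches are in capitals. The motifs were the TATA box TATAAA, the CCAAT box in its core letters CCAAT, the GC box GGGCGG, the E-box CANNTG and the nuclear receptor element AGGTCA. None of the 3 stretches overlaps an exon of its own gene.
Igfbp4: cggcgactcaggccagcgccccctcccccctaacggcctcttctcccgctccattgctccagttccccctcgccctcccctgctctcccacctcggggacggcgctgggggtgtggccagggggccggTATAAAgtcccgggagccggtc
Igfbp5: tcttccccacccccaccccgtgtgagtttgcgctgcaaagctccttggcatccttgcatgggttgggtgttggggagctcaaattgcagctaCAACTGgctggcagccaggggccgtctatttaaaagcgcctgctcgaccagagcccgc
Igfbp6: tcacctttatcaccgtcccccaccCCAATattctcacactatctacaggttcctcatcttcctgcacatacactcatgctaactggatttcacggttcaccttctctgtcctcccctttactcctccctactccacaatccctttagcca
The stretches lie at chr11:98931914-98932063 (plus strand), chr1:72914044-72914193 (minus strand) and chr15:102052547-102052696 (plus strand). Igfbp4 held 1 TATA box, which 7.28% of 21751 such stretches of protein-coding genes hold. Igfbp5 held 1 E-box (46.1% of stretches) and Igfbp6 held 1 CCAAT box (27.8%). The GC box, present in 32.6% of all stretches, and the nuclear receptor element, present in 7.95%, had no match in the 3 shown. The G and C content was 72.7% before Igfbp4, 60.0% before Igfbp5 and 48.7% before Igfbp6, against a median of 55.3%.

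The filter of more than 200 and fewer than 7500 genes and under 30% mitochondrial UMIs kept 29744 of 29962 iWAT barcodes and 28215 of 28636 iBAT barcodes. The matrices held 503611913 and 815235820 UMIs, and kept cells had medians of 16204 and 27235 UMIs. The libraries shared 8 barcodes. Cells were thinned to 5000 UMIs and gated by markers. Stromal cells had a UMI of Pdgfra, the receptor that marks adipocyte progenitors, and met no other gate. They numbered 8841 in iWAT (29.7% of kept cells) and 17284 in iBAT (61.3%), and their summed mesenchymal markers stood at 30910 and 12727 CPM. Pdgfra itself was at 193 CPM in the iWAT and 351 CPM in the iBAT stromal cells, and ungated cells were 53.9% in iWAT and 32.8% in iBAT. Summed mesenchymal markers of the ungated cells stood at 27103 CPM in iWAT and 13939 in iBAT, near the stromal sums. The stromal shares are thus shares of cells with a Pdgfra UMI, not of all mesenchymal cells. Classes of at least 50 cells were compared. In iWAT these were 4475 epithelial-like, 159 immune-like, 116 mural-like and 66 Schwann-like cells. In iBAT they were 198 endothelial-like, 231 mural-like, 255 immune-like, 259 skeletal muscle-like and 716 Schwann-like cells. The 16 endothelial-like, 5 muscle-like and 48 mixed cells of iWAT and the 21 mixed cells of iBAT were not compared. The mural-like class is the least clear, since 71 of its 116 iWAT cells and 168 of its 231 iBAT cells met the gate with the minimum of 3 markers and its mesenchymal markers stood at 106% and 193% of the stromal sum. Those of Schwann-like cells stood at 56.7% of it in iWAT and 111% in iBAT. All levels below are CPM over the summed cells of a group with exact 95% Poisson intervals, ratios carry exact conditional binomial intervals, and both cover counting error only.

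Between depots, the binding protein Igfbp4 had the largest ratio of the members in stromal cells. It was at 84.7 CPM (83.3 to 86.2) in iWAT and at 822 (820 to 825) in iBAT, 9.71-fold higher in iBAT (9.54 to 9.88). Igfbp3, which carries most IGF in serum, went the other way, at 33.3 (32.4 to 34.2) in iWAT and 16.3 (16.0 to 16.7) in iBAT, a ratio of 0.491 (0.474 to 0.509). These were the only members past 2-fold, 1 higher and 1 lower of the 8 that reached 10 CPM. Among all 9002 genes at that level, 3.68% were 2-fold or more higher in iBAT and 4.53% lower. The median log2 ratio was 0.21 for the 8 members and 0.05 for all genes. Marker sums in the stromal cells differed as well, with adipocyte markers at 49.4 CPM in iWAT and 114 in iBAT, epithelial markers at 21.9 and 1.15, and immune markers at 38.2 and 64.8, and their part in the members' ratios was not tested. In ungated cells, which lack a Pdgfra UMI, the iWAT level of Igfbp4 was 82.2 and the iBAT level 648. The Igfbp4 ratio stayed above 2-fold under every alternative run, from 5.32 over all kept cells to 13.1 with a stromal gate of 7 mesenchymal markers. The Igfbp3 ratio sat at the limit and missed it with another thinning seed, with gating at 10000 UMIs, with the stromal gate of 7 mesenchymal markers and over all kept cells, where it was 0.911. With the gate of 7 mesenchymal markers Igfbp5 passed 2-fold in place of Igfbp3, at a ratio of 0.496, and over all kept cells its ratio was 0.887.

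**Figure D1:**
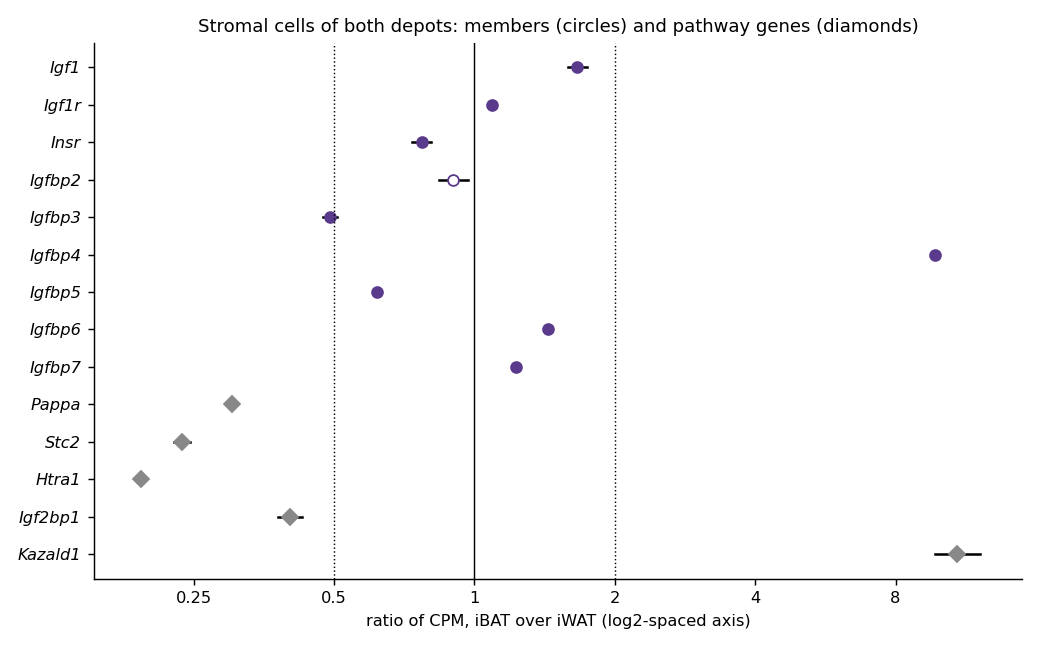
Ratio of CPM, iBAT over iWAT, in stromal cells for the 9 members (circles) and the 5 other IGF pathway genes past 2-fold (diamonds), on a log2-spaced axis. Horizontal lines are exact 95% counting intervals, dotted lines mark 2-fold, and the open circle is Igfbp2, below 10 CPM in both depots. Igfbp4 at 9.71 and Kazald1 at 10.8 lie far to the right and Htra1 at 0.193 farthest to the left.

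The ligand and receptors differed less between depots. Igf1 was at 13.8 (13.2 to 14.4) in iWAT and 22.9 (22.5 to 23.3) in iBAT, a ratio of 1.66 (1.59 to 1.74). Igf1r was at 75.9 and 82.9, a ratio of 1.09 (1.07 to 1.11), and Insr at 16.1 and 12.4, a ratio of 0.77 (0.74 to 0.81). All 3 intervals exclude 1 and all 3 ratios are below 2-fold. Of the remaining binding proteins, Igfbp5 was at 156 in iWAT and 96.6 in iBAT, a ratio of 0.62 (0.61 to 0.63). Igfbp6 was at 86.6 and 125, a ratio of 1.44 (1.42 to 1.47), and Igfbp7 at 1702 and 2087, a ratio of 1.23 (1.22 to 1.23). Igfbp2 was at 6.68 and 6.02, under the level required. The order of the depots held for each of the 8 members in all 96 alternative values. Those with another minimum level repeat the main ratio by construction.

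Values per cell were taken at a fixed depth. At 10000 UMIs per cell, Igfbp4 had a UMI in 31.9% of 11600 Pdgfra-positive iWAT cells and in 66.3% of 21873 iBAT cells. The median iBAT cell had 2 Igfbp4 UMIs, the upper quartile was 8 and the highest cell held 192. Cells with 10 or more made up 23.5% in iBAT and 1.20% in iWAT, and the 10% of iBAT cells with the most held 60.2% of its UMIs. Of Schwann-like cells thinned to 5000 UMIs, 19.1% of 716 (iBAT) and 1.52% of 66 (iWAT) had an Igfbp4 UMI. The stromal shares at the same depth were 55.5% (iBAT) and 21.3% (iWAT). Igfbp5 had a UMI in 22.2% of iWAT and 19.4% of iBAT cells with the top 10% of cells holding 88.3% and 89.2% of its UMIs. Igfbp7 had a UMI in 99.9% of iWAT cells and 99.99% of iBAT cells, with the top 10% holding 20.5% and 20.9%. Such shares depend on a gene's mean level, so they are not compared between genes. Cell by cell, Spearman's rho of Igfbp4 with Igfbp7 was 0.36 over the iBAT cells, the highest of the member pairs there. Over the iWAT cells it was 0.14, below the 0.16 of Igfbp6 with Igfbp7. Each rho describes cells of 1 library at fixed depth. It also depends on the share of cells with a UMI, so the depots are not compared by it.

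Other genes of the axis were taken from a list of 23, of which 14 reached 10 CPM in a depot. In iBAT 1 was 2-fold or more higher and 4 were lower, against 3.68% and 4.53% of all 9002 genes. Kazald1, a secreted IGFBP-related protein, was at 2.06 in iWAT and 22.4 in iBAT, 10.8-fold higher (9.70 to 12.2). The lower genes included the protease Pappa, at 72.8 in iWAT and 21.9 in iBAT (ratio 0.30), and the protease Htra1, at 102 and 19.8 (ratio 0.19). Stc2, an inhibitor of PAPP-A, was at 35.0 and 8.26 (ratio 0.24), and the mRNA-binding protein gene Igf2bp1 at 12.7 and 5.10 (ratio 0.40). The second ligand, Igf2, had 1 UMI in all iWAT stromal cells and 25 in those of iBAT.

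Across classes, Igf1 was highest in immune-like cells of both depots. It was at 250 CPM in iWAT immune-like cells, followed by 29.2 in epithelial-like, 19.7 in mural-like, 13.8 in stromal and 11.9 in Schwann-like cells, where mural-like and stromal, and stromal and Schwann-like, were not apart beyond counting error. In iBAT it was at 501 in immune-like, 54.7 in Schwann-like, 22.9 in stromal, 17.8 in mural-like, 17.5 in skeletal muscle-like and 5.69 in endothelial-like cells, with the mural-like and muscle-like levels not apart. With 4 markers for a gate stromal over mural-like was 0.986, and with 2 markers stromal over endothelial-like went from 4.02 to 1.44. In iWAT stromal over epithelial-like went from 0.47 to 0.66 with the stromal gate of 7 mesenchymal markers, and in iBAT stromal over Schwann-like from 0.42 to 0.56. With another thinning seed stromal over mural-like in iWAT went from 0.70 to 0.40, past 2-fold. The immune-like level was 18.1 times the stromal level in iWAT and 21.9 times in iBAT. The genes with the most similar profile over the 11 groups were Kcnab2, Clec4d and Pkib (Pearson's r of 0.94, 0.94 and 0.93).

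Both receptors were lowest in immune-like cells. Igf1r ran from 47.9 in immune-like to 86.5 in mural-like cells in iWAT, with no neighbours among its top 4 classes apart, and from 30.4 in immune-like to 118 in mural-like cells in iBAT. Its stromal level in iBAT was 2.72 times the immune-like level (2.37 to 3.15), and 1.67 times with 2 markers for a gate. Insr stayed between 9.48 and 21.6 in iWAT and between 10.1 and 20.7 in iBAT, and in iBAT its immune-like and stromal levels, 10.1 and 12.4, were not apart beyond counting error. The closest profiles were those of Btbd7, Mprip and Fads3 for Igf1r and Senp6, Pals1 and Ciao2b for Insr (r between 0.90 and 0.95).

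**Figure D2:**
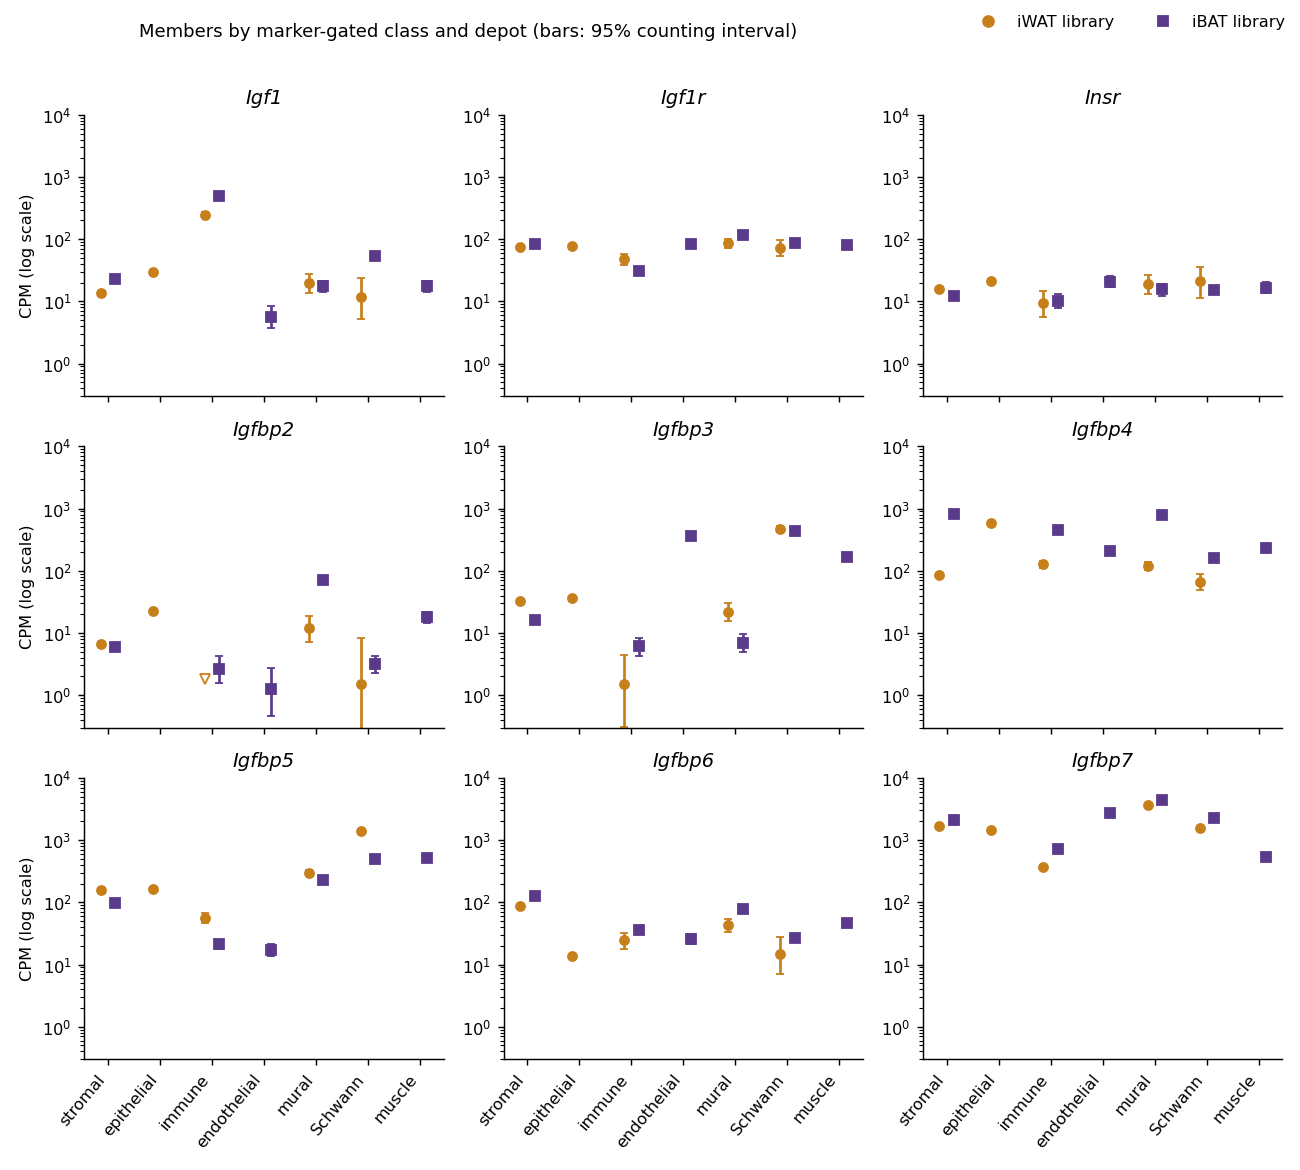
Level of each member in CPM (vertical axis, log scale) by marker-gated class of at least 50 cells, with iWAT as circles and iBAT as squares. Bars are exact 95% Poisson intervals and the open triangle is the upper limit for Igfbp2 in iWAT immune-like cells, where no UMI was found. Igf1 is highest in immune-like cells, Igfbp3 in Schwann-like cells, Igfbp7 in mural-like cells and Igfbp6 in stromal cells of both depots.

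Igfbp3 and Igfbp5 were high in Schwann-like cells. Igfbp3 was at 473 in the iWAT and 439 in the iBAT cells of this class, 14.2 and 26.9 times the stromal level. In iBAT it was also at 358 in endothelial-like and 169 in muscle-like cells, and it was lowest in immune-like and mural-like cells, at 6.09 and 6.96. With 2 markers for a gate stromal over mural-like went from 2.35 to 0.97 and stromal over immune-like from 2.68 to 1.09. In iWAT it was at 35.8 in epithelial-like, 33.3 in stromal and 22.1 in mural-like cells, and only 3 of its UMIs fell in immune-like cells. Igfbp5 was at 1380 in iWAT Schwann-like cells, 301 in mural-like, 164 in epithelial-like, 156 in stromal and 56.4 in immune-like cells. With 2 markers for a gate stromal over Schwann-like went from 0.11 to 0.36 and stromal over mural-like from 0.52 to 0.96, which was 0.34 with another thinning seed. In iBAT it was at 516 in muscle-like and 495 in Schwann-like cells, which were not apart, then at 231 in mural-like, 96.6 in stromal, 21.2 in immune-like and 17.1 in endothelial-like cells. The order of stromal and immune-like cells depended on the gate: stromal over immune-like went from 2.77 to 0.877 in iWAT with gating at 10000 UMIs, and to 13.9 with doublets left out, and from 4.55 to 0.775 in iBAT with 2 markers. With 2 markers stromal over endothelial-like Igfbp5 went from 5.65 to 1.57. The profiles most like Igfbp3 were those of Eef2, Rdx and Git1 (r of 0.93, 0.91 and 0.90), and those most like Igfbp5 were Adgre5, Chd3 and Gpc1 (0.95, 0.93 and 0.92).

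Igfbp4 differed between classes in both depots. In iWAT it was at 597 in epithelial-like cells, 7.05 times the stromal level, then at 126 in immune-like, 119 in mural-like, 84.7 in stromal and 67.2 in Schwann-like cells. There immune-like and mural-like, and stromal and Schwann-like, were not apart beyond counting error, and with another thinning seed stromal over Schwann-like turned to 0.714. The iWAT Schwann-like level rested on 45 UMIs in 66 cells. The share of these cells with an Igfbp4 UMI, given above at fixed depth, was far below that of stromal cells. Counting intervals treat UMIs as independent, so they cannot show that Igfbp4 is alike in stromal and Schwann-like cells. In iBAT, where no cell met the epithelial gate, it was at 822 in stromal and 779 in mural-like cells, an order that turned with 2 markers for a gate (stromal over mural-like 0.85). It was lower in the other classes, with immune-like at 455, muscle-like at 236, endothelial-like at 212 and Schwann-like at 158. With 2 markers for a gate stromal over Schwann-like went from 5.20 to 1.57 and stromal over endothelial-like from 3.88 to 2.05, while stromal over immune-like, 1.81 here, was 2.61 with the stromal gate of 7 mesenchymal markers. Igfbp2 was at 22.5 in iWAT epithelial-like and 70.1 in iBAT mural-like cells, 3.37 and 11.7 times the stromal levels, and at 17.9 in muscle-like cells. With 2 markers for a gate the ratios of stromal over these first 2 classes went from 0.30 to 0.55 and from 0.086 to 0.28, and with 4 markers that over iBAT mural-like cells was 0.054. In iWAT mural-like cells Igfbp2 was at 11.9, from 20 UMIs, and in Schwann-like cells at 1.49, from 1 UMI. With doublets left out stromal over mural-like in iWAT turned from 0.56 to 1.23. In the other iBAT classes Igfbp2 was at 3.18 in Schwann-like, 2.65 in immune-like and 1.27 in endothelial-like cells. The closest profiles were Gclc, Vdr and Ptx3 for Igfbp4 (r of 0.90, 0.85 and 0.83) and Neo1, Tgfb3 and Tpm2 for Igfbp2 (0.85, 0.85 and 0.84).

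Igfbp6 was highest in stromal cells of both depots. It was at 86.6 there in iWAT, then at 42.9 in mural-like, 24.5 in immune-like, 14.9 in Schwann-like and 13.7 in epithelial-like cells. In iBAT it was at 125 in stromal, 79.3 in mural-like, 47.0 in muscle-like, 36.5 in immune-like, 26.5 in Schwann-like and 26.1 in endothelial-like cells. With 2 markers for a gate most of these differences were under 2-fold. Stromal over class then went in iWAT from 5.80 to 1.08 for Schwann-like (17.0 with 4 markers), from 3.54 to 1.17 for immune-like and from 2.02 to 1.07 for mural-like cells. In iBAT it went from 4.78 to 1.80 for endothelial-like, from 4.71 to 1.65 for Schwann-like and from 3.42 to 1.35 for immune-like cells, and the mural-like ratio of 1.58 was 3.11 with 4 markers. Pdgfra, which set the stromal gate, had the profile nearest to it (r of 0.97), then Twist2 and Ddr2 (0.95 each). Igfbp7, abundant in vessel walls, was at 3699 in iWAT and 4438 in iBAT mural-like cells, 2.17 and 2.13 times the stromal level, and at 2750 in iBAT endothelial-like cells. Both mural-like differences were under 2-fold with 2 markers for a gate, where stromal over mural-like was 0.732 in iWAT and 0.632 in iBAT. In iWAT it was at 1544 in Schwann-like and 1443 in epithelial-like cells. It was lowest in immune-like cells in iWAT (372) and in muscle-like cells in iBAT (533). With 2 markers stromal over immune-like Igfbp7 went from 4.58 to 1.31 in iWAT and from 2.89 to 1.23 in iBAT. Tgfb1i1, Rnf14 and Tnks1bp1 were nearest in profile (r of 0.97, 0.96 and 0.96). These correlations are over 11 groups of cells, those of a depot all from 1 library, and were ranked among 6020 genes.

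Some of the low values in rare classes stood near the level of stromal transcripts there. The summed mesenchymal markers were at 20.03% of their stromal level in iWAT immune-like cells and at 25.7% in those of iBAT. Igfbp7 was at 21.9% and 34.6% of its stromal level in the same cells and Igfbp6 at 28.2% and 29.2%. In iBAT endothelial-like cells the markers were at 24.0%, Igfbp4 at 25.7% and Igfbp6 at 20.9%. In muscle-like cells the markers were at 22.8%, Igfbp4 at 28.7% and Igfbp7 at 25.6%. Scrublet called 10.1% of iWAT and 9.02% of iBAT immune-like cells doublets, 15.2% of endothelial-like and 10.4% of muscle-like cells. Among Schwann-like cells it called 0% in iWAT and 9.08% in iBAT. The part of free or doublet-borne stromal RNA in these levels was not tested.

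Counted over classes, stromal cells differed 2-fold or more from epithelial-like cells for 4 of 9 members in iWAT (background 21.4% of genes), from immune-like cells for 5 of 8 (29.7%), from mural-like cells for 2 of 9 (6.42%) and from Schwann-like cells for 3 of 8 (24.0%). In iBAT the counts were 6 of 8 against immune-like cells (25.6%), 5 of 8 against endothelial-like cells (20.8%), 4 of 9 against mural-like cells (6.33%), 5 of 8 against Schwann-like cells (17.6%) and 6 of 9 against muscle-like cells (28.9%). Members were counted only at 10 CPM or more in either class. Summed over classes, so that a member can count more than once, there were 14 such differences in iWAT and 26 in iBAT. The counts depend on the gate. With 2 markers required in place of 3, they went from 14 to 7 over the iWAT classes and from 26 to 13 over the iBAT classes. In iWAT 1109 cells had exactly 2 mural and 392 exactly 2 Schwann markers, against 116 and 66 cells in those classes. In iBAT 1239 had exactly 2 mural and 324 exactly 2 immune markers, against 231 and 255. In the other classes compared such cells were fewer than those in the class. The share over all genes was counted with 3 markers only. With 2 markers the ratio of stromal over immune-like Igf1 went from 0.055 to 0.11 in iWAT and from 0.046 to 0.10 in iBAT, and that of stromal over Schwann-like Igfbp3 in iWAT from 0.070 to 0.43.

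Adipoq encodes adiponectin and marks cells that have begun to form adipocytes. At 10000 UMIs per cell it had a UMI in 118 of 21873 Pdgfra-positive iBAT cells that met no other gate (0.539%, 0.447 to 0.646), 73 of them with exactly 1. It had one in 1 of 255 iBAT immune-like cells (0.392%), and these shares are not apart, so values by the number of UMIs are given beside the contrast. Among the 118 cells the summed adipocyte markers stood at 1000 CPM with 1 Adipoq UMI, 6897 with 2 to 9 and 19442 with 10 or more, against 92.7 in the 21755 cells without. This list holds Adipoq itself, at 100, 318 and 3592 CPM in the 3 positive groups, so part of the step is set by the grouping.

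Igf1 was at 22.1 CPM (21.5 to 22.8) in Adipoq-negative and at 119 in Adipoq-positive iBAT cells, 5.40-fold higher (4.53 to 6.38). By Adipoq UMIs it was at 22.1 with none, 39.7 (26.6 to 57.1) with 1, 161 (120 to 210) with 2 to 9 and 492 (374 to 634) with 10 or more, the last in 12 cells. Each of these intervals lies above the one before. Counting intervals treat UMIs as independent, so they do not cover the spread of Igf1 between cells. The levels in Adipoq-positive cells rested on 29, 53 and 59 Igf1 UMIs, in 73, 33 and 12 cells. The highest Pdgfra-positive iBAT cell held 31 Igf1 UMIs. Whether a few cells carried the level of a group was not tested, so a stepwise rise over cells is not shown. Igf1 was the gene of immune-like cells above, and the summed immune markers were at 61.8, 74.0, 90.9 and 41.7 CPM in the same 4 groups, and at 16535 CPM in immune-like cells. Their part in the Igf1 levels was not tested.

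**Figure D3:**
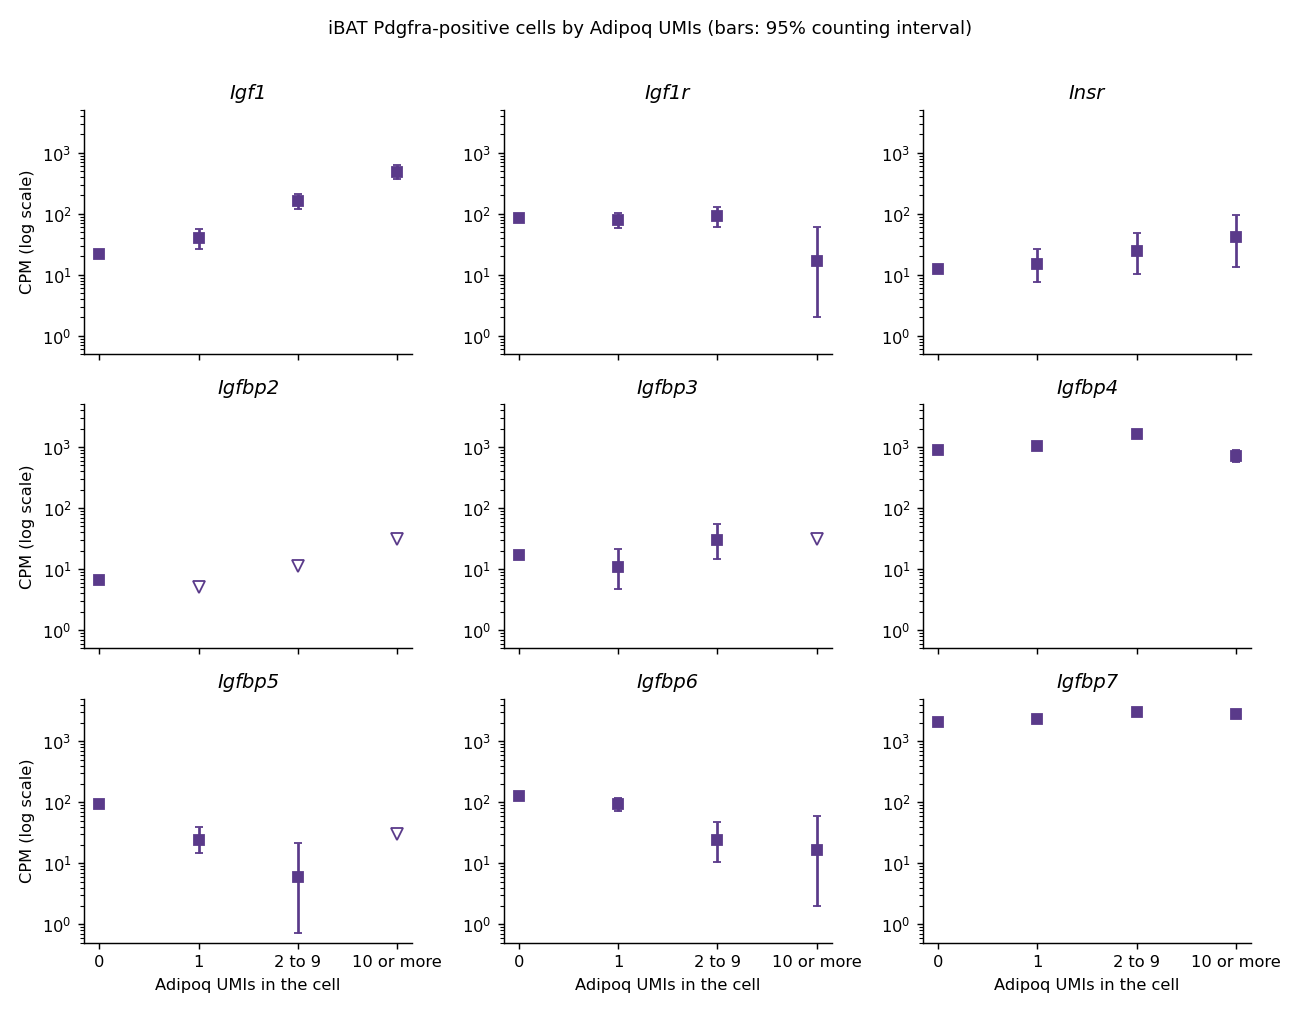
Level of each member in CPM (vertical axis, log scale) in Pdgfra-positive iBAT cells with 0, 1, 2 to 9 and 10 or more Adipoq UMIs (21755, 73, 33 and 12 cells). Bars are exact 95% Poisson intervals and open triangles are upper limits where no UMI was found. Igf1 climbs from 22.1 to 492 while Igfbp5 goes from 94.0 to 6.06 and then to no UMI, with an upper limit of 30.7.

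Igfbp5 went the opposite way, at 94.0 (92.7 to 95.3) in negative and 16.9 in positive cells, a ratio of 0.18 (0.11 to 0.28). The top 10% of Pdgfra-positive iBAT cells held 89.2% of its UMIs. Counting intervals treat UMIs as independent, so they do not cover the spread of Igfbp5 between cells. Igfbp5 was at 24.7 (14.6 to 39.0) with 1 Adipoq UMI, from 18 UMIs. With 2 to 9 it was at 6.06 (0.73 to 21.9), from 2 UMIs, and these intervals overlap. It had no UMI in the 12 cells with 10 or more. No UMI in 12 cells allows up to 30.7 CPM, so a further fall in that group is not shown. Igfbp6 was at 127 in negative and 66.1 in positive cells, a ratio of 0.52 (0.41 to 0.65). In the 3 groups of increasing Adipoq it was at 93.2, 24.2 and 16.7, from 68, 8 and 2 UMIs. Insr was at 12.4 and 20.3, a ratio of 1.64 (1.05 to 2.44), resting on 24 UMIs. Igfbp2 had 0 UMIs in the 118 positive cells, against 6.66 CPM in negative cells, under the level required.

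In all, 2 members were 1.5-fold or more higher and 2 lower of the 8 at 10 CPM or more, against 8.98% and 6.49% of all 9157 genes. Igfbp4 was at 895 in negative and 1171 in positive cells (ratio 1.31), and at 1027, 1652 and 725 with rising Adipoq. Igfbp7 was at 2102 and 2551 (ratio 1.21). For Igf1r the ratio was 0.88 (0.71 to 1.08) and for Igfbp3 0.89 (0.53 to 1.41), and both intervals hold 1. In the 12 cells with the most Adipoq, Igf1r was at 16.7 (2.02 to 60.2), below its level of 85.8 in negative cells. Over the 4 Adipoq groups the summed mesenchymal markers also went from 13692 through 12827 and 10218 to 4975 CPM and the summed cycling markers from 1155 through 1052 and 997 to 167. The summed mural markers were at 67.5, 98.6, 170 and 133 CPM and the summed Schwann markers at 31.3, 43.8, 36.4 and 108. The part of these 4 marker lists in the members' values was not tested. Of 12 other pathway genes, 3 were higher and none lower: the insulin receptor substrate Irs2 (13.98 CPM in negative and 30.5 in positive cells), the PAPP-A inhibitor Stc1 (62.2 and 173) and Kazald1 (22.0 and 39.8).

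The Adipoq contrast kept its directions for Igf1, Insr, Igfbp5 and Igfbp6 in each alternative that could alter a ratio, but its size moved. The Igf1 ratio ran from 3.23 with no thinning to 7.31 with no Pdgfra UMI required (160 positive cells), and the Igfbp5 ratio from 0.13 to 0.40. Insr and Igfbp6 missed 1.5-fold with no thinning, with log2 ratios of 0.56 and -0.57, and with thinning to 5000 UMIs the Insr ratio was 1.28. Other members passed 1.5-fold only in some alternatives. At 5000 UMIs the Igfbp3 ratio was 0.36 and the Igfbp4 ratio 1.51, and with another thinning seed Igfbp3 was again past 1.5-fold lower. Within Mki67-negative cells Igf1 was at 164 in 74 Adipoq-positive cells, against 25.8 in 12594 negative cells. Within Mki67-positive cells it was at 45.5 in 44 Adipoq-positive cells, against 17.1 in 9161 negative cells. In iWAT only 11 of 11600 Pdgfra-positive cells had an Adipoq UMI, 9 of them with exactly 1, and 0 of 105 immune-like cells did, which allows a share of up to 2.86% by a floor of 3 counts and of up to 3.45% by the exact 95% interval. No contrast was drawn there. These 11 cells held no UMI of Igf1, Igfbp2 or Igfbp4. No UMI in the 9 with exactly 1 Adipoq UMI allows up to 41.0 CPM of each gene. In Adipoq-negative iWAT cells Igf1 at 13.5 and Igfbp2 at 5.74 lay under that limit, and Igfbp4 at 81.6 above it. The limit treats UMIs as independent, and only 31.9% of the iWAT cells had an Igfbp4 UMI, so a lower Igfbp4 level is not shown. With no Pdgfra UMI required, Igfbp4 was at 38.9 CPM, from 7 UMIs, in 18 Adipoq-positive cells and at 86.0 in negative cells.

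Mki67 encodes a protein of proliferating cells. It had a UMI in 42.6% of Pdgfra-positive iWAT cells and 42.1% of those of iBAT, and in 53.3% and 52.2% of immune-like cells. The summed cycling markers went from 376 with no Mki67 UMI to 2797 with 5 or more in iWAT and from 430 to 3116 in iBAT. This list holds Mki67 itself, at 647 and 611 CPM in the last group, so part of the step is set by the grouping. The summed mesenchymal markers were lower in Mki67-positive cells of both, and the summed adipocyte markers went from 55.0 with no Mki67 UMI to 30.7 with 5 or more in iWAT and from 144 to 75.6 in iBAT. The part of these shifts in the values that follow was not tested. In iBAT, Igfbp4 was at 1080 (1075 to 1086) in Mki67-negative and 642 in Mki67-positive cells, a ratio of 0.59 (0.59 to 0.60). Igf1 was at 26.6 and 17.2, a ratio of 0.65 (0.61 to 0.69). These 2 were 1.5-fold or more lower and no member was higher, against 1.66% and 5.74% of 8846 genes. With thinning to 5000 UMIs Igf1 missed 1.5-fold (ratio 0.684). Igfbp3 passed with no thinning (0.645) and Igfbp5 with 2 Mki67 UMIs required (0.634). In iWAT no member of the 8 passed 1.5-fold, against 5.66% of 8745 genes higher and 0.732% lower.

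Below that limit, most binding proteins were lower in Mki67-positive cells in both depots. Igfbp3 was at 37.1 in negative and 26.8 in positive iWAT cells (ratio 0.72) and at 19.6 and 13.6 in iBAT (0.70). Igfbp5 was at 156 and 143 in iWAT (0.91) and at 108 and 74.4 in iBAT (0.69). Igfbp6 was at 99.4 and 70.9 in iWAT (0.71) and at 135 and 116 in iBAT (0.86). Igfbp7 was at 1896 and 1515 in iWAT (0.80) and at 2298 and 1838 in iBAT (0.80). For Igfbp4 the iWAT levels were 85.0 and 76.9 (0.90, 0.87 to 0.94), and for Igf1 they were 14.1 and 12.8 (0.91, 0.82 to 1.00). Igfbp2 was at 8.24 and 2.35 in iWAT (0.28, 0.23 to 0.35) and at 8.11 and 4.58 in iBAT (0.57), under the level required.

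**Figure D4:**
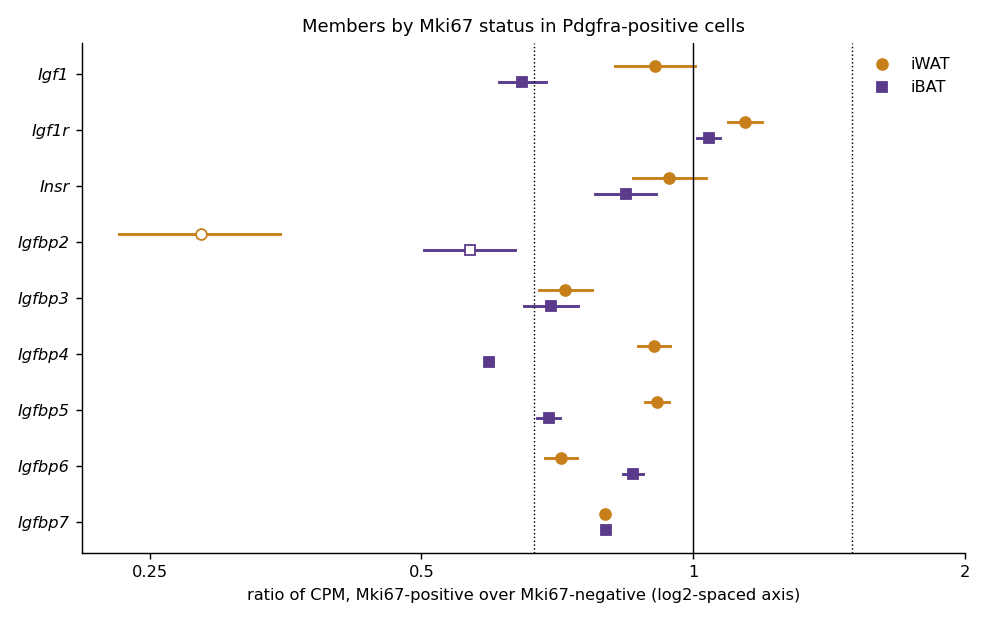
Ratio of CPM, Mki67-positive over Mki67-negative, for each member in Pdgfra-positive cells of iWAT (circles) and iBAT (squares) on a log2-spaced axis. Lines are exact 95% counting intervals, dotted lines mark 1.5-fold and open symbols are Igfbp2, below 10 CPM. Igf1r is the one member to the right of 1 in both depots, and Igfbp4 and Igf1 of iBAT lie past the left dotted line, as do the open symbols.

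Igf1r was the member higher in Mki67-positive cells, at 70.1 in negative and 80.0 in positive iWAT cells (ratio 1.14, 1.09 to 1.19) and at 84.4 and 87.7 in iBAT (1.04, 1.01 to 1.07). With 5 or more Mki67 UMIs it was at 106 in both depots. In iBAT it was at 80.3 with 1 UMI, below the 84.4 with none, and at 89.3 with 2 to 4. Insr was at 16.4 and 15.4 in iWAT (0.94, 0.86 to 1.03) and at 13.4 and 11.2 in iBAT (0.84, 0.78 to 0.91). In iBAT, Igfbp4 did not step down evenly with Mki67: it was at 1080 with none, 698 with 1 UMI, 589 with 2 to 4 and 666 with 5 or more. In iWAT, Igfbp5 was at 156, 153 and 117 in the first 3 groups and at 198 with 5 or more. Of the other pathway genes, Igf2bp1 was higher in Mki67-positive iWAT cells (10.5 and 15.9, ratio 1.52) and Pappa lower in those of iBAT (29.8 and 15.4, ratio 0.52). Within Adipoq-negative iBAT cells Igfbp4 was at 1079 without and 641 with Mki67.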

How the data were processed

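Stromal vascular cultures of iWAT and iBAT were profiled on BD Rhapsody, 1 library per depot. The authors deposited raw counts of UMIs, 1 matrix a depot, from a commercial cloud pipeline that had called the cells. The submitters' processing notes name the build mm39 and Seurat 5.0.0, and the aligner is not given in the sources used here. Cells were filtered as in the study's methods. Each kept cell was thinned at random to 5000 UMIs for gating (3 or more of up to 10 markers for each class other than stromal) and to 10000 UMIs for Adipoq and Mki67 status, which left out 5588 kept iWAT cells and 0 iBAT cells. Class and depot levels are unthinned sums over cells, status levels are sums of thinned counts. With 1 library per depot no model was fitted: a gene counts as different past 2-fold (depot, class) or 1.5-fold (status), at 10 CPM (counts-per-million of UMIs) or more on either side, and a count of 0 was set at 3 counts. Fold calls between classes or by status needed 50 cells on each side. Levels by number of Adipoq UMIs, or by Adipoq and Mki67 together, are also given for groups of fewer cells. Scrublet (scanpy 1.11.5, rate 0.08) called 561 iWAT and 796 iBAT doublets, which were kept. Other routines were written in Python 3.11.15 with numpy 2.4.6 and scipy 1.17.1 and tested on simulated data. Positions are from GENCODE on GRCm39. The members, gene lists, rules for named genes and motifs were chosen with earlier results of these data known. Members were given in every comparison, by level or range, pathway genes where past the fold between depots or by Adipoq or Mki67 status, and the 3 genes of nearest profile for each member. Alternatives were another cell filter, doublets left out, another seed, other levels, gates, scalings and depths.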

Additional observations from a re-analysis of the deposited data

Results flagged for a closer look

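Between depots, 3 contrasts within a library pointed in opposite directions, each with both counting intervals off 1, and the difference was not tested because there was 1 library per depot. The stromal level of Igfbp4 was 0.671 times the immune-like level in iWAT and 1.81 times in iBAT. Against mural-like cells it was 0.714 times in iWAT and 1.06 times in iBAT. This opposite direction was lost in several alternatives, with log2 ratios in iWAT of 0.31 with class cells holding a Pdgfra UMI left out and 0.078 with another thinning seed, and in iBAT of -0.23 with 2 markers for a gate and -0.11 with gating at 10000 UMIs. The stromal level of Igfbp7 was 1.10 times the Schwann-like level in iWAT and 0.903 times in iBAT. With 2 markers for a gate the iWAT ratio was 0.967, on the same side of 1 as in iBAT.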

How the results depend on the processing

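Between depots 2 members passed 2-fold, and 1 did with another thinning seed, a minimum of 50 CPM, gating at 10000 UMIs or all kept cells. In each case the member lost was Igfbp3, and with a stromal gate of 7 mesenchymal markers Igfbp5 took its place. Between classes there were 14 differences past 2-fold in iWAT, counting a member once per class, 9 with gating at 10000 UMIs (3 classes left) and 7 with 2 markers for a gate, and 26 in iBAT, 13 with 2 markers. Igfbp5 turned direction between stromal and immune-like cells (log2 ratio -0.19 in iWAT at 10000 UMIs, -0.37 in iBAT with 2 markers), as did Igfbp3 between stromal and mural-like cells of iBAT (-0.038 with 2 markers). By Adipoq status in iBAT 4 members passed 1.5-fold, 2 with no thinning, and 5 with thinning to 5000 UMIs, another seed or no minimum level. By Mki67 status in iWAT 0 passed, and 1 with no minimum level, no thinning or 2 UMIs required. By Mki67 status in iBAT 2 passed, and 1 with a minimum of 50 CPM or thinning to 5000 UMIs (in both, Igf1 was lost), and 3 with no minimum level, no thinning or 2 UMIs required. The cause was not tested, except that a higher minimum removes members by construction. The contrasts without a Pdgfra UMI were chosen after seeing the data and left the counts at 4, 0 and 2. Of 895 values of single members between classes, 864 kept their direction, including those with another minimum level, which repeat the main ratio. No paired analysis was possible because each depot has 1 library. Counting error is largest for the rare classes and the 118 Adipoq-positive cells, and the intervals leave out the spread between cells.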
